A study of Homo sapiens with 6 samples.

Results

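The genes described here are 10 transcription factor genes of the AP-1 and immediate early class, chosen by gene name: FOS, FOSB, FOSL1, FOSL2, JUN, JUNB, JUND, EGR1, IER2 and KLF6. Of these, 8 are among the 12227 genes listed in the deposited table. FOSB and EGR1 are not listed, so no value is given for them. Transcripts were sequenced in PC3, an established human prostate cancer cell line, grown in DMEM with fetal bovine serum. There were 3 libraries from cells with short hairpin RNA (shRNA) against VprBP, labelled VprBP knockdown, and 3 from cells with control shRNA, labelled WT. VprBP is the protein made from DCAF1, which recruits substrates to CRL4 ubiquitin ligases. The question addressed is which of these transcripts differ in level when VprBP is depleted. The labels number the libraries of each group from 1 to 3 without saying whether they are separate cultures or hairpins, so the p-values cover the spread between these libraries, which may be technical.

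AP-1 is a dimer of basic leucine zipper proteins that binds DNA at AP-1 sites and at the related cAMP response element (CRE). JUN proteins pair with each other or with FOS proteins, whereas FOS proteins need a JUN partner. Several of these genes are immediate early genes: growth factors, serum and stress switch them on through MAP kinases without new protein synthesis, and their short-lived transcripts then fall again. The JUN protein is itself a target of CRL4 ligases that contain DET1 and COP1. EGR1 and KLF6 are zinc finger factors outside AP-1, and IER2 encodes a small nuclear protein of the same early response.

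Estimated depth over listed genes was 23029474 to 39633882 reads per knockdown library and 22981892 to 32293178 per control library. Values are given as deposited, that is, estimated reads scaled by 1 factor per library, and differences were tested with limma on log2(value + 0.5). The targeted gene was checked before the members. DCAF1 had values of 38.5, 41.1 and 40.2 in the knockdown libraries, against 79.4, 78.5 and 78.7 in the control libraries, a log2 fold change of -0.97 (SE 0.05, limma adjusted p = 3.56e-11). An exact two-sided permutation test gave p = 0.1, the smallest that 3 libraries against 3 allow. The epithelial markers KRT8, KRT18, KRT19, EPCAM and CDH1 were all listed, the lowest being EPCAM with means of 279 in knockdown and 251.3 in control cells. KRT8, KRT18 and EPCAM rose, by 0.71, 0.61 and 0.15 in log2 units, CDH1 fell by 0.08, and KRT19 was not called, at 0.0069. The prostate luminal markers KLK3 and KLK2 were not listed. Of 10 fibroblast and immune markers 8 were not listed. COL1A1 had group means of 24.7 in knockdown and 24.4 in control cells, and CD68 had 26.4 and 26.3.

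Knockdown cells had less FOS and FOSL1 and slightly less JUNB transcript than control cells, and more KLF6, JUND, JUN and FOSL2. IER2 did not pass the test. Thus 4 of the 8 listed members rose and 3 fell, at a limma p adjusted over all listed genes under 0.05. Calls were common in the whole table: 60.9% of listed genes passed, with 33.0% higher and 27.8% lower. The knockdown and control libraries did not overlap for 7 of the 8 members, compared with 64.8% of all listed genes. The median absolute log2 fold change of the members was 0.39, against 0.21 for all listed genes. FOS changed by more than 1.5-fold beyond its error. For no other member did the test against that fold pass. Listed genes all had 150 or more estimated reads in at least 1 library, which FOS reached only in control libraries. The listing of FOS thus depended on the group where it was higher.

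**Figure D1:**
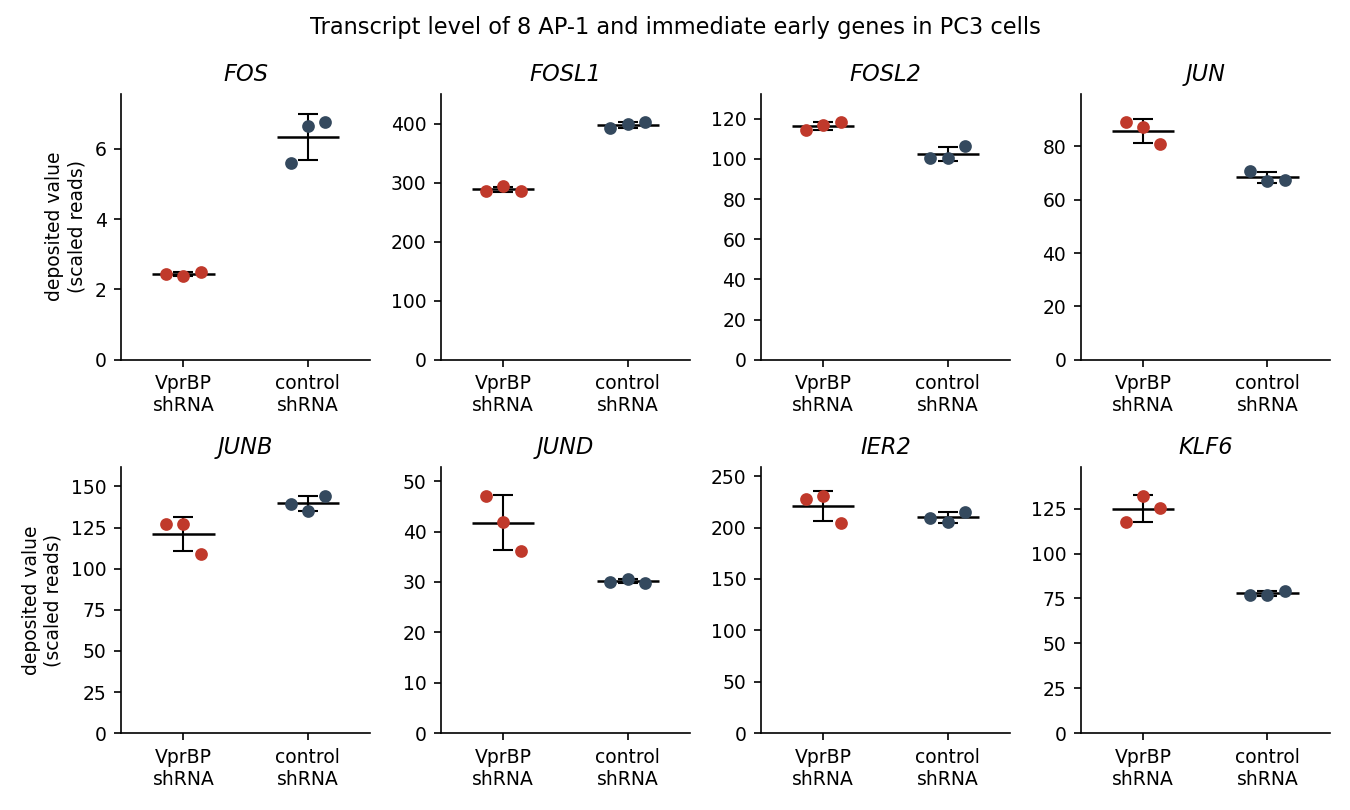
Deposited value (scaled reads, linear axis from 0) of each listed member in the 3 VprBP shRNA libraries and the 3 control shRNA libraries. Points are libraries, horizontal lines are group means and bars are 1 SD. FOS, FOSL1 and JUNB lie lower in every knockdown library, KLF6, JUND, JUN and FOSL2 lie higher, and the groups overlap for IER2.

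Upstream sequences are shown for FOS, the member that fell most, and for the 3 members that rose most, KLF6, JUND and JUN. They come from RefSeq (GRCh38.p14), read 5′ to 3′ on the gene's strand, and cover up to 250 bases before the RefSeq start, ending where the gene as deposited begins. Of the 10 members, 9 were in that table, all but FOSL1. Capitals mark the CRE TGACGTCA, its variant TGACATCA, which is known from the JUN promoter as a site for JUN and ATF2 dimers, and the CRE core TGACG. All were searched on both strands, and the core is part of the CRE. The windows are chr14:75278578-75278825 (plus strand), chr10:3785282-3785459, chr19:18281623-18281872 and chr1:58784049-58784297 (minus strand).
FOS: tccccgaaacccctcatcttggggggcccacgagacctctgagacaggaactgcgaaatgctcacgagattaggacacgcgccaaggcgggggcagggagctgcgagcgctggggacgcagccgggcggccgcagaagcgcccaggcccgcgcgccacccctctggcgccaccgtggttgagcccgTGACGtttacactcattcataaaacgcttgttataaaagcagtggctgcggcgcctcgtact
KLF6: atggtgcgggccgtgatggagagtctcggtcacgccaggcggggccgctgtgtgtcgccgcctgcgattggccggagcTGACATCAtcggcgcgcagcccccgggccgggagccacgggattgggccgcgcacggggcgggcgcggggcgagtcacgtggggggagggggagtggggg
JUND: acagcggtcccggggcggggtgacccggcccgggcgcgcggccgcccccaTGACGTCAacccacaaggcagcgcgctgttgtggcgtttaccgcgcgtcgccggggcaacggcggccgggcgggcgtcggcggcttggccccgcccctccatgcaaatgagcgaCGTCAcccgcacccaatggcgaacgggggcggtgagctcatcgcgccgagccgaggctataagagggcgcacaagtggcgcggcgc
JUN: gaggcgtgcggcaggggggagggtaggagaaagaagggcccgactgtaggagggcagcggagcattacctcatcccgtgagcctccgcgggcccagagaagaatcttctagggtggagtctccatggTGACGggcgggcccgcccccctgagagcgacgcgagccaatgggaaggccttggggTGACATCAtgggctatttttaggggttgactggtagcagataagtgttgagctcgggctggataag

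The variant TGACATCA was in the 250 bases of JUN, from -67 to -60, and of KLF6, from -172 to -165, and in none of the other members searched. It is found in 2.37% of 34943 such windows. These windows, used for every motif share given here, are not limited to listed genes, so they include genes without a value in these data. Of the 9, JUND alone held the full CRE, from -200 to -193, as do 1.63% of windows. FOS held the CRE core at -64 to -60, upstream of a TATA box TATAAA at -33 to -28. The CRE core was in 8 of the 9 members, KLF6 being the exception, compared with 21.2% of windows. None of the 9 members searched held the AP-1 site TGANTCA there, which 6.59% of windows do. EGR1 was the 1 member of these 9 with a CArG box, the binding site of serum response factor, and held 2 of them. Of all windows, 1.165% hold this box. Bases further upstream than the window were not searched in any member. The GC box GGGCGG was in 7 of the 9 members and 42.5% of windows, CCAAT in 4 members and 32.0% of windows, and TATAAA in 3 members and 10.8% of windows. The EGR site GCGNGGGCG was in EGR1 and KLF6, and in 8.38% of windows. Positions count back from -1, the base before the RefSeq start. These matches describe letters in the window and do not show binding.

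FOS encodes c-Fos, the classic serum-induced member of the family. Its value was 2.44, 2.37 and 2.50 in knockdown replicates 1 to 3, against 5.59, 6.65 and 6.76 in control replicates 1 to 3. All 3 knockdown libraries were lower than all 3 control libraries. The group mean was 2.44 ± 0.0658 in knockdown cells and 6.33 ± 0.643 in control cells (SD, n = 3 each), a value 2.60-fold lower in knockdown. FOS was the least abundant listed member, resting on 57 to 96 estimated reads per knockdown library and 154 to 182 per control library. No knockdown library reached the 150 estimated reads that each listed gene has in at least 1 library. On the log2(value + 0.5) scale the difference was -1.21 ± 0.14 (SE, limma adjusted p = 1.94e-06). Its size exceeded that of 97.6% of listed genes. With a pseudocount of 0.1 the log2 fold change was -1.37, and with a pseudocount of 2 it was -0.91.

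FOSL1 encodes Fra-1, a Fos-related protein without the strong transactivation domain of c-Fos, and was the most abundant FOS family transcript. It had 286.7, 294.1 and 285.4 in the knockdown libraries, against 392.8, 399.8 and 403.1 in the control libraries. The ranges were far apart relative to the spread within either group. FOSL1 averaged 289 ± 4.70 in knockdown and 399 ± 5.25 in control cells (SD, n = 3 each). That is 1.38-fold lower in knockdown, or -0.46 ± 0.03 in log2 units (SE, limma adjusted p = 2.47e-09).

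FOSL2 encodes Fra-2, the other Fos-related protein. Its values were 114.3, 116.9 and 118.4 in the knockdown libraries, against 100.6, 100.6 and 106.3 in the control libraries. Every knockdown library was higher, but by a small amount. The rise was 1.14-fold, or 0.18 ± 0.04 in log2 units (SE, limma adjusted p = 0.000832), below the median absolute change of listed genes. FOSL2 thus moved opposite to FOS and FOSL1.

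JUN encodes c-Jun, which can activate its own gene. It had values of 89.2, 87.3 and 80.9 in the knockdown libraries, against 70.7, 67.2 and 67.3 in the control libraries, without overlap. The mean was 85.8 ± 4.33 in knockdown and 68.4 ± 2.01 in control cells (SD, n = 3 each). JUN was thus 1.25-fold higher in knockdown, or 0.32 ± 0.05 in log2 units (SE, limma adjusted p = 2.09e-05).

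JUND encodes the JUN protein that is usually present in resting cells. Its values were 47.1, 41.8 and 36.2 in knockdown replicates 1 to 3, against 30.03, 30.6 and 29.9 in control replicates 1 to 3. All knockdown libraries were higher, and they spread far more than the control libraries. JUND averaged 41.7 ± 5.46 in knockdown and 30.2 ± 0.407 in control cells (SD, n = 3 each). The 1.38-fold rise was 0.45 ± 0.08 in log2 units (SE, limma adjusted p = 7.89e-05).

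JUNB encodes a JUN protein that often restrains c-Jun. It had 127.2, 127.2 and 108.9 in the knockdown libraries, against 139.6, 135.1 and 144.5 in the control libraries. The groups did not overlap, and knockdown replicate 3 was the lowest of the 6 libraries. The mean was 121 ± 10.6 in knockdown and 140 ± 4.72 in control cells (SD, n = 3 each). In log2 units the difference was -0.21 ± 0.05 (SE, limma adjusted p = 0.0029). Without knockdown replicate 3 it was -0.13 (limma adjusted p = 0.00575). JUNB lies entirely within the span of HOOK2 on the opposite strand, and 210 stretches of 50 bases are shared with HOOK2 transcripts. HOOK2 itself had means of 49.5 ± 4.06 in knockdown and 50.2 ± 3.55 in control cells (SD, n = 3 each; limma adjusted p = 0.807).

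KLF6, a Krüppel-like zinc finger factor described as a growth suppressor in prostate cancer, rose most among the members. Its values were 117.7, 132.4 and 125.2 in the knockdown libraries, against 77.0, 77.1 and 79.4 in the control libraries. The lowest knockdown library stood well above the highest control library. KLF6 averaged 125 ± 7.32 in knockdown and 77.8 ± 1.35 in control cells (SD, n = 3 each). The 1.61-fold rise, 0.68 ± 0.05 in log2 units (SE, limma adjusted p = 2.38e-09), was larger in size than the change of 91.4% of listed genes.

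IER2 had 228.2, 231.2 and 204.6 in the knockdown libraries, against 209.3, 205.3 and 215.3 in the control libraries. The groups overlapped, because knockdown replicate 3 was the lowest of all 6. The log2 fold change was 0.07, with a 95% interval of -0.02 to 0.17 (limma adjusted p = 0.153). Without knockdown replicate 3 it was 0.13 and passed the test (limma adjusted p = 0.00285). In GENCODE 29, IER2 overlaps the antisense gene AC011446.2 by 1123 bases and shares 851 stretches of 50 bases with it, so reads cannot be told apart without strand.

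**Figure D2:**
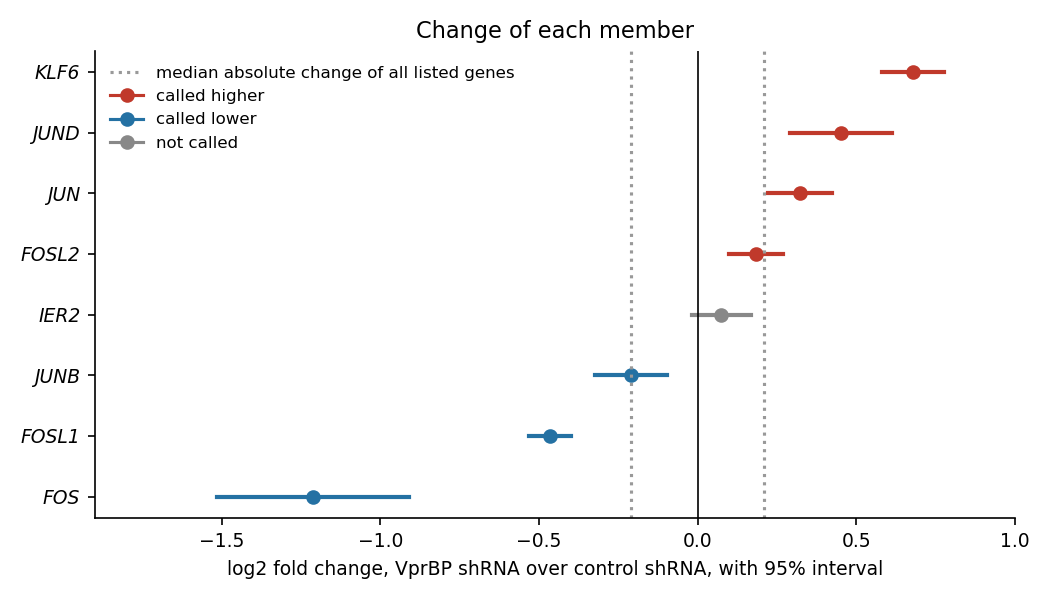
Log2 fold change of each listed member, VprBP shRNA over control shRNA (horizontal axis), with its 95% interval from limma. Dotted lines mark the median absolute change of all listed genes, 0.21 in either direction. FOS at -1.21 and KLF6 at 0.68 are the ends of the range, and the interval of IER2 includes 0.

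JUND, JUNB, IER2, JUN and FOSL1 were lowest in replicate 3 among the knockdown libraries. The principal transcript of JUND has 69.7% G and C, JUNB 64.9%, IER2 61.7%, FOSL1 60.04% and JUN 56.7%, against a median of 48.9% for listed genes. Relative to the mean of knockdown replicates 1 and 2, replicate 3 was lower by 0.29 on the log2 scale for JUND, 0.22 for JUNB, 0.17 for IER2, 0.12 for JUN and 0.02 for FOSL1. Its median difference was -0.18 over the 444 listed genes with at least 65% G and C, -0.10 over 1344 genes with 60% to 65%, -0.0051 over 5403 genes with 45% to 60%, and 0.07 over 3992 genes under 45%. JUND, JUNB, IER2 and JUN thus lay below the median of genes in the same range, and FOSL1 lay above it. KLF6, with 45.9% G and C, differed by 0.0046 and FOS, with 52.6%, by 0.05. The part of base composition in the results was not tested.

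Levels of different genes were compared per kilobase of the principal transcript in GENCODE 29. FOSL1 was the highest, with 173 ± 2.82 per kilobase in knockdown and 239 ± 3.15 in control cells (SD, n = 3 each). FOS, at 1.13 ± 0.0305 in knockdown and 2.93 ± 0.298 in control cells, was the lowest. IER2 and JUNB followed FOSL1, with 75.4 and 66.5 per kilobase in knockdown and 71.6 and 76.8 in control cells. IER2 lay above JUNB in every knockdown library, although their ranges overlapped, and in control cells JUNB lay above IER2 in every library. The remaining members were within a narrow band. KLF6 had 26.9, JUN 24.2, JUND 22.4 and FOSL2 17.4 per kilobase in knockdown cells, against 16.7, 19.3, 16.2 and 15.3 in control cells. In knockdown the range of JUND overlapped those of JUN and KLF6. KLF6 lay above JUN in every knockdown library, but in replicate 1 only by 25.28 against 25.19. This order depends on the length used: KLF6 has 4656 bases in its principal transcript and 6139 in the union of its exons, and JUN has 3540 in both. With the longer length KLF6 would lie below JUN in knockdown. In control cells JUN lay above KLF6 and JUND in every library.

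The make-up of both families differed between the groups. Among FOS family transcripts per kilobase, FOSL1 held 90.3% ± 0.216 in knockdown and 92.9% ± 0.176 in control cells (SD, n = 3 each). The share of FOSL2 was 9.07% ± 0.196 in knockdown and 5.94% ± 0.131 in control cells, and that of FOS 0.590% ± 0.0238 and 1.14% ± 0.101. The sum of the 3 genes per kilobase was 192 ± 2.81 in knockdown and 257 ± 3.81 in control cells, 1.34-fold lower in knockdown. For the JUN family the sum was 113 ± 9.70 in knockdown and 112 ± 2.44 in control cells, while its parts differed. JUNB held 58.8% ± 0.862 in knockdown and 68.4% ± 0.900 in control cells, JUN 21.5% ± 0.798 and 17.2% ± 0.557, and JUND 19.8% ± 1.11 and 14.4% ± 0.510. The groups did not overlap for any of these 6 shares. The shares are descriptions with no test, and FOSB is not part of them. They depend on the transcript lengths used: the deposited JUN gene spans 7204 bases, against 3540 in GENCODE 29.

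**Figure D3:**
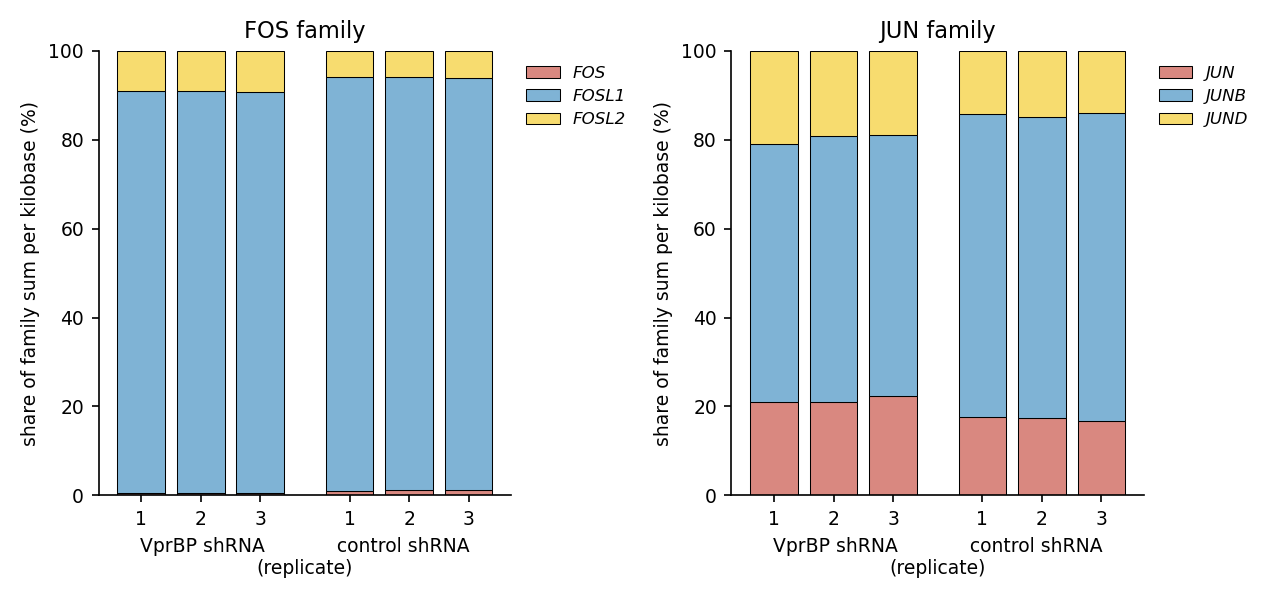
Share of each gene in the summed value per kilobase (%) of the FOS family (left) and the JUN family (right), 1 bar per library, with the 3 VprBP shRNA libraries left of the 3 control shRNA libraries. FOSL1 makes up 90.1% to 90.5% of the FOS family in knockdown and 92.7% to 93.0% in control libraries, and JUNB makes up 58.1% to 59.7% of the JUN family in knockdown and 67.7% to 69.4% in control libraries.

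The members differ in gene structure. JUN, JUNB, JUND and IER2 have 1 exon in their principal transcript, as do 1.93% of listed genes with such a transcript, and FOS, FOSL1, FOSL2 and KLF6 have 4, against a median of 9. The pentamer ATTTA, part of the AU-rich elements that mark many early response transcripts for decay, occurs 5 times in the 806 bases of the FOS 3′ untranslated region. That density, 6.20 per kilobase, is above that of 94.7% of listed genes. JUNB has 2 in 500 bases. The density per kilobase is 2.33 for JUN, 1.85 for FOSL2, 1.69 for KLF6, 1.5 for FOSL1 and 1.47 for JUND, against a median of 1.65, and IER2 has none. FOS and JUNB were lower in knockdown and had the highest densities, and FOSL1, also lower, was below the median. A link between density and direction of change was not tested.

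Other AP-1 and related bZIP factors were lower or not called. Of 19 genes 13 were listed, and of these 9 fell, 0 rose and 4 were not called by limma. That is 69.2% called, against 60.9% of all listed genes, where 33.0% were higher and 27.8% lower. At an unadjusted p under 0.05 the number higher was also 0, as it was with limma-voom. The median log2 fold change was -0.33, against 0.02 for all listed genes. CEBPD, a C/EBP factor of the acute phase response, was 2.65-fold lower, with 2.61 ± 0.632 in knockdown and 6.91 ± 0.333 in control cells (SD, n = 3 each). JDP2, a repressor that pairs with JUN, was 2.44-fold lower, at 3.72 ± 0.440 in knockdown and 9.08 ± 0.801 in control cells. Neither CEBPD nor JDP2 reached 150 estimated reads in a knockdown library, so both are listed only through control libraries. The 6 genes not listed have no value in either group. CREB5, an ATF2 relative, was 1.90-fold lower.

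Other immediate early and primary response genes moved both ways. Of 42 genes 33 were listed, and 9 rose and 13 fell, leaving 11 without a call, around a median of 0.02 in log2 units. The share called, 66.7%, was near the 60.9% of all listed genes. CCN1 and CCN2, which encode matricellular proteins, were 3.06-fold and 3.21-fold higher, and TIPARP, a mono-ADP-ribosyltransferase gene, was 2.29-fold higher. DUSP5, which encodes a nuclear phosphatase that inactivates ERK, had the largest decrease. It averaged 31.0 ± 0.743 in knockdown and 108 ± 3.36 in control cells (SD, n = 3 each), or -1.78 ± 0.05 in log2 units (SE, limma adjusted p = 1.46e-14). TRIB1, a pseudokinase gene, and KLF4 were 1.68-fold and 1.56-fold lower.

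KLF6 rose, whereas its relatives were more often lower than higher. Of 17 other KLF and SP factors 13 were listed, 2 of them higher, 7 lower and 4 without a call, and their median was -0.32 in log2 units. The share called was 69.2%, against 60.9% of all listed genes, where 33.0% were higher and 27.8% lower. SP3 and KLF11 were 1.33-fold and 1.32-fold higher. KLF4, KLF12 and KLF13 were 1.56-fold, 1.40-fold and 1.36-fold lower.

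Upstream regulators showed no common direction. Of 15 listed genes of SRF, ternary complex factors and CREB, 5 rose, 5 fell and 5 had no call. The share called was 66.7%, near the 60.9% of all listed genes. CREB3, a membrane-bound bZIP factor of the endoplasmic reticulum, was 1.68-fold higher, FHL2, a LIM-domain cofactor of AP-1 and SRF, 1.64-fold higher and the SRF coactivator MRTFA 1.52-fold higher. MEF2D, EP300 and MRTFB were 1.41-fold, 1.26-fold and 1.22-fold lower. Of 30 listed MAP kinase cascade genes 11 rose, 12 fell and 7 had no call, so 76.7% were called. The number higher was 7 with median-ratio scaling, library-sum scaling, limma-voom or without control replicate 2, and 6 without control replicate 1. MAP2K6, which activates p38, rose 1.75-fold, MAPK11, which encodes p38 beta, 1.73-fold and RPS6KA4, a kinase of CREB and histone H3, 1.41-fold. MAP3K5, MAP2K5 and BRAF were 1.80-fold, 1.51-fold and 1.51-fold lower.

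Of 11 listed genes of JUN and FOS protein turnover 3 rose, 6 fell and 2 had no call, while COP1 and DET1 were not listed. The share called was 81.8%, against 60.9% of all listed genes. UCHL3, RBX1 and CUL4B were 1.22-fold, 1.15-fold and 1.11-fold higher. The call of RBX1 was lost without knockdown replicate 1 (limma adjusted p = 0.18), without control replicate 2 (limma adjusted p = 0.0757) or without control replicate 3 (limma adjusted p = 0.0506). TRIB1 and USP28, which encodes a deubiquitinase that stabilises JUN, were 1.68-fold and 1.22-fold lower. Of 12 listed genes of AU-rich transcript decay 3 rose, 4 fell and 5 had no call, a share called of 58.3%. The deadenylase genes CNOT7 and CNOT8 were 1.19-fold and 1.09-fold higher and ZFP36L1 1.10-fold higher. ZFP36, which encodes tristetraprolin, ZFP36L2 and the exonuclease gene XRN1 were 1.31-fold, 1.17-fold and 1.15-fold lower. The call of CNOT8 was lost in 9 of 14 alternative fits and that of XRN1 in 3 of 14. Without control replicate 3 the limma adjusted p of CNOT8 was 0.173, and that of XRN1 was 0.0721 without knockdown replicate 1 and 0.0902 without control replicate 1.

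Described AP-1 target genes were mostly higher. Of 36 genes 29 were listed, and 20 rose and 6 fell, leaving 3 without a call, around a median of 0.44 in log2 units. The share called was 89.7%, against 60.9% of all listed genes. The list was assembled with earlier results of these data known, so its direction is not independent evidence. IL6 was 35.9-fold higher, with 55.9 ± 1.06 in knockdown and 1.56 ± 0.259 in control cells (SD, n = 3 each). MMP9, a matrix metalloproteinase gene, had 4.99 ± 0.627 in knockdown and 0.157 ± 0.0672 in control cells, where it rested on 2 to 7 estimated reads per library. The EGF receptor ligand genes EREG and AREG were 2.01-fold and 1.40-fold lower, and TGFB1 was 1.37-fold lower.

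**Figure D4:**
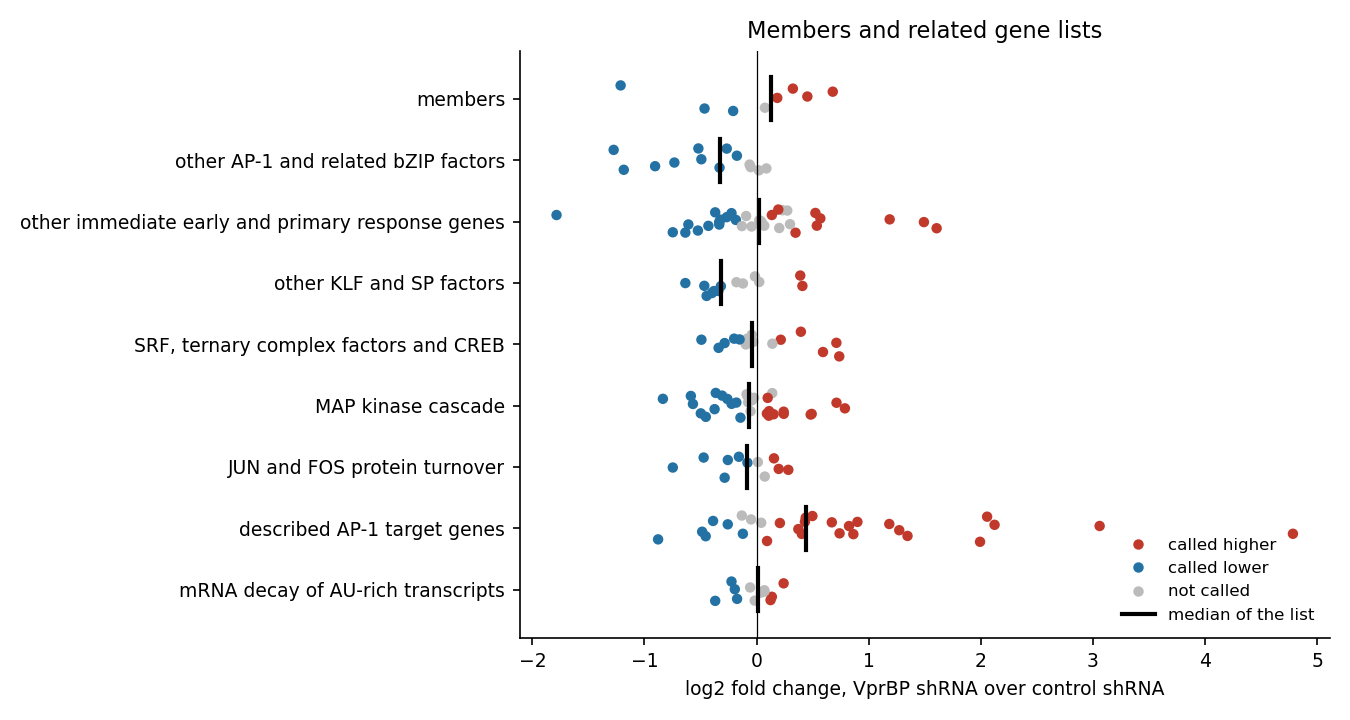
Log2 fold change, VprBP shRNA over control shRNA, of every listed gene of the members and of each related list (1 point per gene, vertical position within a list arbitrary). Black bars are list medians, which are 0.13 for the members, -0.33 for other AP-1 and related bZIP factors and 0.44 for described AP-1 target genes.

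The genes whose 6 library values were nearest to those of FOS, KLF6 and FOSL1, the called members with the largest changes, were searched among 11609 genes with a mean of at least 5. Likeness was the Euclidean distance of log2 values set to the control mean. Nearest to FOS were SIDT1 (distance 0.13), PECAM1 (0.18) and MYCL (0.19). Nearest to KLF6 were STAT2 (0.07), CYB561D2 (0.08) and THG1L (0.09), and nearest to FOSL1 were ZFC3H1, RALGAPA1 and TRAK1 (each 0.04). Over 6 libraries in 2 groups the distance mostly reflects the size of the group difference.

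On hg38, with coordinates as deposited and the end reduced by 1, FOS (ENSG00000170345.10) spans 75278826 to 75282230 of chromosome 14, plus strand, and FOSL1 (ENSG00000175592.9) spans 65892049 to 65900573 of chromosome 11, minus strand. FOSL2 (ENSG00000075426.12) spans 28392448 to 28417317 of chromosome 2, plus strand. JUN (ENSG00000177606.9) spans 58776845 to 58784048 of chromosome 1, minus strand. Chromosome 19 holds JUNB (ENSG00000171223.6) from 12791486 to 12793315 and IER2 (ENSG00000160888.7) from 13150411 to 13154911, both on the plus strand, and JUND (ENSG00000130522.6) from 18279694 to 18281622 on the minus strand. KLF6 (ENSG00000067082.15) spans 3775996 to 3785281 of chromosome 10, minus strand. Between members, no stretch of 50 bases was shared in GENCODE 29 transcripts, and FOSL1 shared 59 such stretches with its pseudogene FOSL1P1.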

How the data were processed

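RNA was sequenced from 3 VprBP shRNA and 3 control shRNA libraries of PC3 cells, made with a SMARTer mRNA-seq kit per the labels' protocols. The deposited values are a scaled signal rather than counts: estimated reads multiplied by 1 factor per library, as read from the values, whose 75th percentile was 79.0 in all 6 libraries. The submitters' processing notes name Partek and hg38. The aligner, annotation release, strand setting and scaling method are nowhere given in the sources used here. One read was worth 0.0254 to 0.0439, found from the spacing of low values, and 55.2% to 64.8% of values were whole reads within 0.02, so no count model was used. Each listed gene had 150 or more estimated reads in at least 1 library. FOS, CEBPD, JDP2, EREG, SIDT1 and MYCL reached this only in control libraries, and CCN2, IL6 and MMP9 only in knockdown libraries. The listing of these genes thus depended on the group where they were higher.

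Differences were fitted over log2(value + 0.5) by limma 3.58.1 (R 4.3.3) with a trended prior, two-sided, with Benjamini-Hochberg adjustment over all 12227 genes, and called at an adjusted p under 0.05. Folds are ratios of mean deposited values. This scale understates changes of low genes. In bulk RNA, fewer cells with a transcript and less of it per cell cannot be told apart. Members and lists were chosen with earlier results of these data known. Named genes are all listed members and, per related list, up to 3 called genes in each direction with the largest change and a mean of at least 1. Some genes this rule names are not reported here. Transcript lengths, exons and overlaps come from GENCODE 29, and upstream sequences from RefSeq. Alternatives were 2 other scalings, pseudocounts of 0.1 and 2, a mean of at least 5, limma-voom, a replicate block, a test against a fold of 1.5 and leaving out each library.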

Additional observations from a re-analysis of the deposited data

How the results depend on the processing

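Under 14 alternatives every listed member kept its direction. FOS, with a mean under 5, dropped out of the fit restricted to higher genes. The test against a fold of 1.5 called 651 genes, 296 higher and 355 lower. Among the members it called 0 higher (limma; 1 at an unadjusted p under 0.05, and 4 by limma-voom with no fold minimum) and 1 lower, FOS. The log2 fold changes that missed it were -0.46 for FOSL1, 0.18 for FOSL2, 0.32 for JUN, -0.21 for JUNB, 0.45 for JUND and 0.68 for KLF6. IER2 ranged from 0.0419 to 0.1298 with 1 library left out, the highest without knockdown replicate 3, where it was called. No other call of a member changed.

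The replicate numbers showed no pairing of the libraries: same-numbered libraries had correlations of deviations of 0.03, -0.18 and -0.17 over 11609 genes. Deviations were taken from the mean of each group, so these correlations depend on each other and cannot exclude a pairing. No library correlated best with its own number. With a replicate block, all listed genes called higher numbered 3826 and all listed genes called lower 3216, and the members' calls numbered 4 and 3 as before. Of 583 values of 42 other named genes under the alternatives, 540 kept their call, 43 lost it and 0 reversed. With union exon lengths the family shares were 90.0% and 92.8% for FOSL1 and 9.58% and 6.30% for FOSL2 and 0.443% and 0.859% for FOS in knockdown and control, a choice added after seeing the data. Depth limits FOS most, with under 100 estimated reads in each knockdown library.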

Other observations

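Listed genes whose 250 upstream bases hold the sites searched above moved in both directions. Here a gene with several RefSeq starts counted if any of its windows held the site, whereas each member above was searched at a single start. Of 163 genes with TGACATCA, the site shared by JUN and KLF6, 35.6% were called higher and 34.97% lower in knockdown. Of 329 genes with the full CRE TGACGTCA, 36.2% were higher and 26.4% lower. Of 553 genes with the AP-1 site TGANTCA, 37.3% were higher and 31.5% lower. Among all 9363 listed genes with such a window, 34.4% were higher and 28.1% lower. The median log2 fold changes were 0.02, 0.05 and 0.02 for the 3 sites and 0.03 for all of these genes. The sites were chosen after the members' sequences had been seen, and the differences between these shares were not tested.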
